A study of Mus musculus with 2 samples.

Results

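The 2-day and 13-week αSMA-labeled periosteal cells were compared on the 1 plate that held both. The comparison covered 314 wells, of 384 sorted wells on the plate and of 503 wells with at least 200 detected genes in the whole series. Wells were taken by the time written beside each cell barcode and were kept when 200 or more genes had a unique molecular identifier (UMI, a tag that counts each captured transcript once). This left 181 of 192 wells at 2 days (94.3%) and 133 of 192 at 13 weeks (69.3%).

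The periosteum is the connective tissue sheath of bone and holds cells that form bone and cartilage after fracture. The study asked which periosteal cells an αSMA-driven label marks and how long the labeled population lasts. In the mice, the αSMA (Acta2) promoter drives a tamoxifen-dependent Cre, which switches on the Tomato protein of the Ai9 reporter permanently in cells that express the promoter at that time and in their descendants. All mice received tamoxifen at 75 mg/kg in 2 injections, and Tomato+ cells from tibia and femur periosteum were sorted 1 per well and sequenced from the 3′ end of polyA RNA by a plate form of Drop-seq.

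The 2-day cells came from aSMACreER/Ai9/Col2.3GFP mice aged 10.3 weeks, after 2 days of chase. The 13-week cells came from aSMACreER/Ai9/R26-M2rtTA/TetOP-H2B-GFP mice aged 20.1 weeks, after 96 days of chase, which had also received doxycycline for 5 weeks from postnatal day 11. Col2.3GFP is a GFP reporter under a fragment of the Col1a1 promoter, while the TetOP-H2B-GFP cassette lies in the Col1a1 locus. Each time point was 1 pool of female mice, sorted without antibodies against endothelial or blood cells and dispensed into its own part of the plate. By these ages and chase times, the 13-week mice were younger at tamoxifen than the 2-day mice. Time since labeling, age at labeling, age at sorting, strain, doxycycline and plate position cannot be told apart here. Wells of 1 pool are not replicates. No test between times was therefore made, and no p-value is given.

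Levels are UMIs of a gene summed over wells, per 10000 UMIs of those wells, and ratios are the 13-week level over the 2-day level. Brackets give exact 95% intervals, Poisson for a level, Clopper-Pearson for a share of wells and conditional binomial for a ratio. They cover counting error only. A gene was called higher or lower when it differed by 2-fold or more and had at least 50 UMIs over all wells, or at least 30 within a class of wells.

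Kept wells held a median of 795 UMIs (260 to 3818) from 498 genes at 2 days and of 726 UMIs (246 to 3884) from 441 genes at 13 weeks. Mitochondrial transcripts took a median of 5.83% and 6.93% of the UMIs of a well. All 384 barcodes were also used on the 6-week plate of the study, but none was shared between the 2-day and the 13-week wells. The wells not kept, 11 at 2 days and 59 at 13 weeks, differed in content: the 18 genes of skeletal muscle fibers held 2 UMIs at 2 days and 544 of 9633 UMIs at 13 weeks. The endothelial list below had 60 UMIs in those 13-week wells. With a minimum of 100 genes a well, which readmits part of these wells, the 13-week to 2-day ratio of Acta1, skeletal actin, went from 1.68 to 4.25 and that of Tcap, a sarcomere gene, from 2.91 to 5.38, while the ratio of the collagen list below was between 0.400 and 0.468 under each of its 15 alternatives, that one included.

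**Figure D1:**
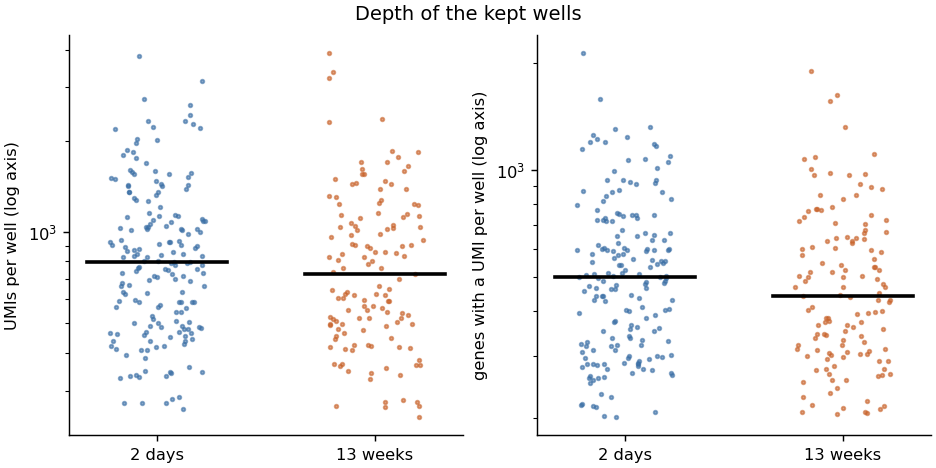
UMIs per kept well (left, log axis) and genes with a UMI per kept well (right, log axis) at 2 days (181 wells) and 13 weeks (133 wells); points are wells and bars are medians, 795 and 726 UMIs and 498 and 441 genes. The ranges almost coincide, from 260 to 3818 UMIs at 2 days and from 246 to 3884 at 13 weeks.

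As background, fibrillar collagens are made as procollagens, folded by chaperones in the endoplasmic reticulum and cross-linked outside the cell, and they form the bulk of the fibrous periosteum. Pericytes and smooth muscle cells wrap small vessels and contract through an actin and myosin apparatus, and they lie against endothelial cells, which take up fatty acids from the blood. Acta2 itself is controlled by serum response factor, which binds CArG boxes in promoters of contractile genes.

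Across all wells, collagen transcripts were less abundant at 13 weeks and transcripts of endothelial and contractile genes were more abundant. Of 772 genes with enough UMIs, 29 were higher (3.76%) and 49 were lower (6.35%), together 10.1%. Leaving out the well with most UMIs of the gene at each time and averaging over wells kept 16 of the higher and 35 of the lower genes past 2-fold. The median gene had a ratio of 0.918, a shift of -0.12 on the log2 scale, and relative to that median 37 genes were higher and 39 lower, so that the share of called genes that was higher went from 37.2% to 48.7%. All ratios below are on the UMI scale unless given as relative to the median.

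**Figure D2:**
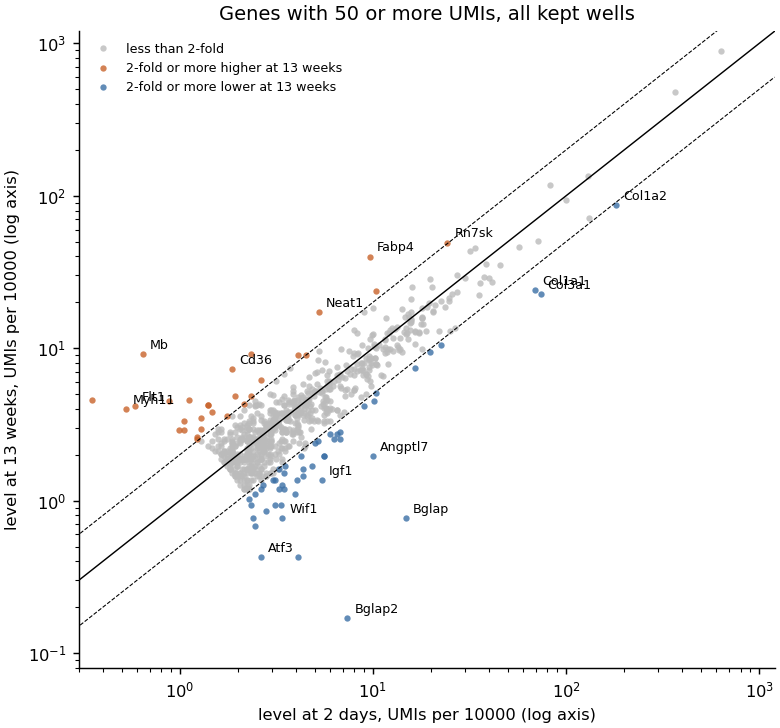
Level of each of the 772 genes with 50 or more UMIs at 2 days (x) and at 13 weeks (y), in UMIs per 10000 over all kept wells on log axes; the solid line marks equal levels, the dashed lines 2-fold, and colored points the 29 genes higher and 49 lower at 13 weeks. Fabp4, at 9.64 and 39.7, and Neat1, at 5.26 and 17.2, lie above the upper line, and Col3a1, at 73.7 and 22.6, and Col1a1, at 69.1 and 24.0, below the lower one.

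The Acta2 promoter is shown because it drives the label, that of Myl9 as of another contractile gene, which was not called, and those of Col1a2 and Col3a1 as of collagen genes called lower. Each line holds the 150 bases before the RefSeq start in GRCm38.p6, 5′ to 3′ on the gene's strand, with CArG boxes (at most 1 mismatch in the AT core) and the sequence CCAAT in capitals. Acta2 is at chr19:34255374-34255523 on the minus strand, Myl9 at chr2:156775314-156775463, Col1a2 at chr6:4505468-4505617 and Col3a1 at chr1:45311388-45311537, all 3 on the plus strand.
Acta2: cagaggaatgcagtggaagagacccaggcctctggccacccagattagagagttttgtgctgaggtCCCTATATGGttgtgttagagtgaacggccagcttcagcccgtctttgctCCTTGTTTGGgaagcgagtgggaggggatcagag
Myl9: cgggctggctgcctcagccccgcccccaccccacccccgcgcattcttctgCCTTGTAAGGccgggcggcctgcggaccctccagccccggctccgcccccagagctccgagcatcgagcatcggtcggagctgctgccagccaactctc
Col1a2: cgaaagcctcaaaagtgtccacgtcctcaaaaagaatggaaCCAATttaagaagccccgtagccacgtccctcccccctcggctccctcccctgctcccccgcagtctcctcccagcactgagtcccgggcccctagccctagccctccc
Col3a1: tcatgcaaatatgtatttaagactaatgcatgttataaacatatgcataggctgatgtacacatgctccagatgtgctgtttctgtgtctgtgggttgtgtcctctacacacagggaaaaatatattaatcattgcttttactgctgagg

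Acta2 held CArG boxes from -84 to -75 and from -34 to -25 relative to the start, and Myl9 held one from -99 to -90 and another outside the printed stretch. Col1a2 held CCAAT from -109 to -105 and a CArG box by the same definition from -228, outside the printed stretch. Col3a1 held neither in its 250 bases, but held TATAAA from -117, left in lower case. Of 32851 RefSeq promoters of 250 bases, searched on both strands, 8.59% held a CArG box by this definition, 33.8% held CCAAT and 12.4% held TATAAA. The GENCODE spans of Acta2 and Col1a2 given below reach past the RefSeq start, so these 2 stretches lie inside them. The matches are descriptions of the letters, not of binding.

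Fibrillar and associated collagens had 381 UMIs per 10000 at 2 days (372 to 390) and 162 at 13 weeks (155 to 170), a ratio of 0.426 (0.405 to 0.448). All 12 members with enough UMIs had a ratio under 1. Of these 12, 8 were called lower and 0 higher, against 6.35% of all genes, and the median member had a ratio of 0.384. By well, the list ranged from 0 to 1640 UMIs per 10000 with a median of 221 at 2 days, and from 0 to 759 with a median of 80.5 at 13 weeks. The wells of both times therefore overlapped widely, with the middle of the 13-week wells lower. The list gave 0.38 without Col1a2, the member with most UMIs.

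Col3a1 (collagen III, a component of thin fibers in distensible tissue; chromosome 1, 45311538 to 45349706) went from 73.7 UMIs per 10000 (69.7 to 77.9) to 22.6 (19.9 to 25.5). Its ratio was 0.306 (0.267 to 0.350), or 0.334 relative to the median gene. A well held 0 to 91 Col3a1 UMIs at 2 days and 0 to 55 at 13 weeks, with a median of 1 UMI at both, and wells with at least 1 UMI went from 69.1% to 50.4%. In wells thinned to 300 UMIs these shares were 54.9% and 25.4%. The lower level thus came with fewer wells in which the transcript was seen.

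Col1a2 (the α2 chain of collagen I, the main protein of bone and tendon matrix; chromosome 6, 4504814 to 4541544) had 181 UMIs per 10000 at 2 days and 86.3 at 13 weeks. A well held 0 to 211 UMIs with a median of 6 at 2 days, and 0 to 122 with a median of 2 at 13 weeks. The ratio was 0.477 (0.444 to 0.513), or 0.520 relative to the median gene and 0.584 without the wells that held 3 or more endothelial UMIs, neither of which is a call. Col1a1, the partner chain (chromosome 11, 94936224 to 94953042), had 69.1 and 24.0 UMIs per 10000, a ratio of 0.348 (0.304 to 0.396). The 13-week mice carry a cassette in the Col1a1 locus and the 2-day mice a transgene with a piece of its promoter, and the part of either in the Col1a1 level was not tested.

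The called members also included both chains of collagen V with enough UMIs, which nucleates collagen I fibers: Col5a1 had a ratio of 0.345 and Col5a2 of 0.417. Col6a3, a chain of the beaded filament collagen VI, had 0.352, while Col6a1 and Col6a2, the other chains, had 0.673 and 0.602 and were not called. Col8a1 and Col16a1, a short-chain collagen and a fibril-associated one, had 0.334 and 0.337. Col12a1, a fibril-associated collagen of dense connective tissue, had 0.650 and was not called.

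The values of 3 genes that process collagen, chosen after their values were seen, are given beside a background of 476 of 772 genes with a ratio under 1. Serpinh1 and Adamts2 are also members of the list of proteases and inhibitors below. Serpinh1, the procollagen chaperone HSP47, had 8.70 and 4.75 UMIs per 10000 (ratio 0.546), Adamts2, which cleaves the amino-terminal propeptide, 2.34 and 0.934 (0.400), and Lox, the cross-linking enzyme lysyl oxidase, 2.92 and 1.53 (0.523). Of these, Adamts2 alone was past 2-fold. Sparc, a collagen-binding matricellular protein, had 132 and 71.8 UMIs per 10000, a ratio of 0.544 (0.502 to 0.590).

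Other matrix lists had ratios nearer to 1. Small leucine-rich proteoglycans, which regulate fiber assembly, had 170 and 121 UMIs per 10000 (ratio 0.714), with 1 of 10 members called lower, against 6.35% of all genes. That member was Lum (lumican, ratio 0.419), while Dcn (decorin) had 0.709. The list of proteases and inhibitors had a ratio of 0.621 with 2 of 12 members lower, 1 of them Adamts2 (1 of 12 relative to the median gene), and the matricellular list had 0.842 with 1 of 13 lower, Thbs2 (0.473). Relative to the median gene Thbs2 had 0.516 and was not called, while Sparcl1, at 1.92 as counted, had 2.09 and was. Basement membrane genes had 0.619, but 0.928 without Sparc, with 0 of 7 called. Mgp, an inhibitor of mineralization, had 99.6 and 93.6 UMIs per 10000 over all wells.

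Endothelial genes, a list of 22, had 28.4 UMIs per 10000 at 2 days (25.9 to 31.0) and 90.6 at 13 weeks (85.3 to 96.2), a ratio of 3.19 (2.87 to 3.56). Of 7 members with enough UMIs, 6 were called higher, against 3.76% of all genes, and the median member had a ratio of 3.91. The other, Ly6c1, had 117 and 116 UMIs and was not called. It is also in the list of fibroblasts or progenitors, and its UMIs are part of the well shares and well limits given for endothelial genes. Wells with at least 1 UMI of the list went from 50.8% to 71.4%. The median well had 5.68 UMIs per 10000 at 2 days and 20.1 at 13 weeks, and the highest had 551 and 773. The list had a ratio of 2.72 without Fabp4, its member with most UMIs, and 3.21 without the top well of each time.

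Fabp4 (a fatty acid binding protein of capillary endothelium and adipocytes; chromosome 3, 10204088 to 10208576) had 165 UMIs at 2 days and 468 at 13 weeks. This is 9.64 (8.22 to 11.2) and 39.7 (36.2 to 43.5) UMIs per 10000, a ratio of 4.12 (3.44 to 4.95). A well held 0 to 24 UMIs at 2 days and 0 to 77 at 13 weeks, with a median of 0 at both times, and the gene was seen in 23 of 181 wells (12.7%) and 36 of 133 (27.1%). Fabp4 was thus a gene of few wells at both times, with more such wells and more UMIs in them at 13 weeks. Without the 31 and 46 wells that held 3 or more UMIs of the endothelial list, which includes Fabp4, its ratio was 1.22 and that of the list 1.62. The adipocyte genes Adipoq and Pparg had under 5 UMIs each, and the adipocyte list had 28 and 24 UMIs (ratio 1.25, 0.691 to 2.23).

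Cd36, a fatty acid translocase, had 32 and 86 UMIs (ratio 3.91, 2.57 to 6.06). Flt1, a receptor for vascular endothelial growth factor, had 10 and 49 UMIs (7.12, 3.56 to 15.8). Epas1, a hypoxia-inducible factor of endothelium, had a ratio of 4.13, Aqp1, a water channel, 3.03, and Gpihbp1, which anchors lipoprotein lipase to capillaries, 2.74. Without the wells that held 3 or more endothelial UMIs, Flt1 had 2.92, but Epas1 1.51 and Aqp1 0.864, neither of which is a call. Flt1, Epas1 and Aqp1 are themselves in the list that chose those wells, so this setting is no check on them. Other endothelial genes had too few UMIs to be called. Pecam1 (CD31) had 4 and 28 UMIs, Cdh5 (VE-cadherin) 10 and 20, Kdr 7 and 19, and Egfl7 10 and 27. Plvap had 0 and 10 and Tie1 0 and 5, while Ramp2 had 23 and 14 (0.884, 0.421 to 1.79). The fatty acid list had a ratio of 3.04, but its 3 called members, Fabp4, Cd36 and Gpihbp1, are all in the endothelial list too, and Apoe, the other member with enough UMIs, was not called (1.28).

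Smooth muscle contractile genes had 36.7 and 54.5 UMIs per 10000, a ratio of 1.49 (1.33 to 1.66), and 4 of 10 members were called higher, against 3.76% of all genes. The highest well at 13 weeks had 772 UMIs per 10000 of the list. Without the top well of each gene at each time the list had a ratio of 1.34. Myl6, a light chain and the member with the most UMIs, had 175 and 102 UMIs (0.847, 0.657 to 1.09), and Tpm1, a tropomyosin, 94 and 51 (0.788). Acta2 (smooth muscle actin; chromosome 19, 34241090 to 34255590), whose promoter drives the label, had 77 and 107 UMIs, or 4.50 (3.55 to 5.62) and 9.08 (7.44 to 10.97) UMIs per 10000. A well held 0 to 15 UMIs at 2 days and 0 to 28 at 13 weeks. The ratio was 2.02 (1.49 to 2.74), with a UMI in 22.1% of wells at 2 days and 28.6% at 13 weeks. Without the top well of each time the Acta2 ratio was 1.85, and with read counts in place of UMI counts 1.47, both under the 2-fold limit.

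Myh11 (smooth muscle myosin heavy chain; chromosome 16, 14194535 to 14291372) had 9 and 47 UMIs, a ratio of 7.59 (3.68 to 17.6), and was seen in 8 of 181 and 19 of 133 wells. No well held more than 2 Myh11 UMIs at 2 days, and the highest held 13 at 13 weeks. Tpm2 (another tropomyosin) had a ratio of 2.07 and Mylk (myosin light chain kinase) of 2.31. Myl9 (a regulatory light chain) had 1.94 and Tagln (transgelin) 1.61, neither past 2-fold. Cnn1 had under 5 UMIs.

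Rgs5, a regulator of G-protein signaling that marks pericytes (chromosome 1, 169655501 to 169695813), had 172 and 215 UMIs, or 10.05 and 18.25 UMIs per 10000, a ratio of 1.82 (1.48 to 2.23). The perivascular list had a ratio of 1.38 (1.23 to 1.55) with 0 of 3 members called. Of these, Postn (periostin) had 224 and 158 UMIs, the most of the list at 2 days. The study cites periostin as a marker enriched in mesenchymal cells of the periosteum. Pdgfrb, a receptor of pericytes, had 1.29 (0.845 to 1.95), and Cxcl12, a chemokine of marrow and vessel stroma, 1.97 (1.39 to 2.81). Members of the perivascular list with too few UMIs for a call included Abcc9 at 3 and 16 UMIs and Cspg4 at 5 and 13, but also Des at 21 and 5 (0.346), Higd1b at 18 and 9 (0.727), Notch3 at 26 and 15 (0.838) and Steap4 at 29 and 17 (0.852), so the members did not share a direction. Without the wells that held 3 or more endothelial UMIs, the ratio was 0.275 for Rgs5, 0.919 for the perivascular list and 0.848 for Pdgfrb. Plcb4, a phospholipase C, had 18 and 39 UMIs, a ratio of 3.15.

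The 3 genes that define the tendon-gene wells showed no common direction over all wells. Thbs4, a thrombospondin of tendon, had a ratio of 1.11 (0.965 to 1.28), Fmod (fibromodulin) 0.629 (0.542 to 0.728) and Tnmd (tenomodulin) 0.810 (0.667 to 0.980). The tendon or fibrous list had 192 and 154 UMIs per 10000 (0.804) with 2 of 18 members called lower, against 6.35% of all genes. Angptl7, a secreted angiopoietin-like protein, went from 171 to 23 UMIs (0.195, 0.121 to 0.303), but 73 of the 171 lay in 1 well, without which and the top 13-week well the ratio was 0.248. Ogn (osteoglycin) had 1.2 (0.939 to 1.53).

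Insulin-like growth factor genes had a ratio of 0.647, with 3 of 5 members lower, against 6.35% of all genes, and 0 higher. Igf1, the growth factor (chromosome 10, 87858265 to 87937042), had 93 and 16 UMIs in 46 and 13 wells, a ratio of 0.25 (0.137 to 0.428). Its binding proteins Igfbp4 and Igfbp5 had 0.376 and 0.465, and Igfbp7 had 0.881. Relative to the median gene 2 of the 5 were lower, since Igfbp5 then had 0.507. Other called genes were Wif1, a secreted Wnt inhibitor, at 0.225, Sfrp2, another secreted Wnt modulator, at 0.303 with 8 of its 10 UMIs at 13 weeks in 1 well, and Il11ra1, the interleukin 11 receptor, at 0.302. Errfi1, a feedback inhibitor of EGF receptors, had 0.278, Peg3, an imprinted zinc finger gene, 0.277, and Ifrd1 0.280.

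Markers of fibroblasts or progenitors had 278 and 177 UMIs per 10000 (0.638), with 3 of 15 lower, against 6.35% of all genes, and 0 higher. The 3 were Col3a1 (1262 and 266 UMIs) and Lum, already counted in the collagen and proteoglycan lists, and Dpt (74 and 19 UMIs). Pdgfra, a receptor of mesenchymal progenitors, had 33 UMIs in 23 wells at 2 days and 4 UMIs in 3 wells at 13 weeks, which is too few for a call (ratio 0.176, 0.0453 to 0.495), and the ratio was 0.635 with read counts. Gsn (gelsolin, an actin-severing protein) had 0.659 (0.576 to 0.753), Ly6a (Sca1) 1.22 (0.972 to 1.54) and Thy1 0.807 (0.399 to 1.57). The list of skeletal stem cell markers had 1.16 with 2 of 9 higher, against 3.76% of all genes, and 1 lower, against 6.35%. Acta2, also in the contractile list, was among those higher. Relative to the median gene, 3 of the 9 were higher and 0 lower. The progenitor markers named here thus had ratios on both sides of 1.

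Neat1, a nuclear long noncoding RNA that scaffolds paraspeckles (chromosome 19, 5824708 to 5845478), had 90 and 203 UMIs, or 5.26 (4.23 to 6.46) and 17.2 (14.9 to 19.8) UMIs per 10000. A well held 0 to 4 UMIs at 2 days and 0 to 14 at 13 weeks, and wells with a UMI went from 32.04% to 54.1%. The ratio was 3.28 (2.54 to 4.25). Malat1, its neighbor, had 1.05. Gm26924, a noncoding RNA gene by its annotation, had 633 and 886 UMIs per 10000, and Rn7sk, a small nuclear RNA, 24.2 and 49.2. The nuclear long noncoding list had 1.34, or 1.09 without Gm26924. Relative to the median gene, 1 of its 6 members with enough UMIs was higher and 1 lower, against 37 and 39 of 772 genes. Which transcript the Gm26924 UMIs come from was not tested. Cytosolic ribosomal protein genes had 0.879 with 0 of 79 called, against 10.1% of all genes, and nuclear genes of the respiratory chain had 0.994 with 1 higher and 1 lower of 53.

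Immediate early genes, transcription factors induced within minutes of a stimulus, had 102 and 74.9 UMIs per 10000, a ratio of 0.731, with 2 of 14 members lower, against 6.35% of all genes, and with 6 of the 14 at a ratio over 1. Relative to the median gene, 1 of 14 was lower. These were Atf3, at 45 and 5 UMIs (0.161, 0.05 to 0.405), and Fosb at 0.490. Egr1 had 0.512 and Fos 0.752. The heat shock and metallothionein list had 0.813 with 0 of 8 called.

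Some called genes rested on single wells dominated by 1 kind of transcript. Bglap and Bglap2 (osteocalcin, the bone protein of osteoblasts) and Bglap3 held 348 of 1836 UMIs (18.95%) of 1 well at 2 days. That well had 230 of 253 Bglap UMIs and 111 of 126 Bglap2 UMIs. Without the top wells the Bglap ratio was 0.502 and no call. Hemoglobin held 38.2% of the UMIs of 1 well at 2 days and 30.3% of 1 at 13 weeks, and the red blood cell list had 2.26 with these wells and 1.42 without the top wells. Skeletal muscle fiber genes held 5% or more of the UMIs of 1 well at 2 days and 5 at 13 weeks, and Mb (myoglobin) had 86 of its 108 UMIs at 13 weeks in 1 of them. That 1 well at 2 days held 284 of the 377 UMIs of the list at that time. The list had a ratio of 1.65 with all wells and of 4.19 without the top well of each time. The Acta1 ratio ranged from 1.06 with a minimum of 300 genes a well to 4.25 with a minimum of 100. With read counts Tcap had 1.70, and without the Bglap, hemoglobin and muscle wells Mb had 1.61, neither past 2-fold. All of these wells were among those with neither condition of the classes below. Leaving out the Bglap and hemoglobin wells moved no count of called genes past 1.5 times.

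Wells were next divided by the genes they held, with Rgs5 at 1 UMI or more, with Thbs4, Fmod and Tnmd summing to 3 UMIs or more, and with neither. Rgs5 wells were 35 of 181 at 2 days (19.3%, 13.9 to 25.9) and 38 of 133 at 13 weeks (28.6%, 21.1 to 37.0). The difference was 9.23 points, with an interval from -0.696 to 19.3 that includes 0. In wells thinned to 300 UMIs the shares were 13.1% and 20.6%. At the limit, 11 Rgs5 wells at 2 days and 10 at 13 weeks had exactly 1 UMI. Without wells that held 3 or more endothelial UMIs, a setting added after the data were seen, the difference was -2.80 points.

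Tendon-gene wells were 70 of 181 (38.7%, 31.5 to 46.2) and 49 of 133 (36.8%, 28.6 to 45.6), a difference of -1.83 points (-12.9 to 9.49). At the limit, 7 and 6 of them had a sum of exactly 3, and 21 and 14 wells had 2 and fell outside. Wells with neither were 79 (43.6%) and 52 (39.1%). For each of these classes the interval of the difference included 0. Both conditions were met by 3 wells at 2 days and 6 at 13 weeks, which count in both classes. An Rgs5 UMI was found in 4.29% and 12.2% of tendon-gene wells against 28.8% and 38.1% of other wells.

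Within the 35 and 38 Rgs5 wells, the 3 collagen genes with enough UMIs were again lower. Of 209 genes with enough UMIs, 18 were higher (8.61%) and 19 lower (9.09%), together 17.7%, and relative to the median gene 20 and 15. The collagen list had 120 and 40.9 UMIs per 10000 (ratio 0.341, 0.275 to 0.421). Col3a1 had 0.212, Col1a2 0.454 and Col1a1 0.383. A Rgs5 well held 0 to 15 Col3a1 UMIs at 2 days and 0 to 3 at 13 weeks, in 19 wells each time. The transcript was therefore in a like number of Rgs5 wells, with fewer UMIs in each.

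Rgs5 itself had 70.6 and 67.6 UMIs per 10000 in these wells, which it chose. Fabp4 was in 17 of 35 wells at 2 days and 26 of 38 at 13 weeks, with 156 and 381 UMIs. Its level went from 64.0 to 120 UMIs per 10000, a ratio of 1.87 (1.55 to 2.27) and no call. The endothelial list had 139 and 246 UMIs per 10000 (1.78, 1.56 to 2.02) with 2 of 8 members higher, against 8.61% of all genes in these wells. Endothelial UMIs other than Fabp4 and Cd36, with Ly6c1 counted, were found in 68.6% and 81.6% of Rgs5 wells. These wells were thus not free of endothelial transcripts at either time. Whether they held more than 1 cell was not tested.

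H2-K1, a heavy chain of MHC class I, had 14 and 60 UMIs in Rgs5 wells, in 7 and 20 of them, a ratio of 3.28 (1.81 to 6.36). H2-D1, another heavy chain, had 2.36 (1.23 to 4.80) and B2m, their light chain, 1.70 (1.22 to 2.40) and no call. Ifitm2 and Ifitm3, interferon-induced membrane proteins, had 0.851 and 0.706. The list of MHC class I and interferon-induced genes had 1.39 there, with 2 of 6 higher against 8.61%, and 1.22 over all wells, with 1 of 7 higher against 3.76%. Without wells with 3 or more endothelial UMIs, the H2-K1 ratio in Rgs5 wells was 0.600 and the list over all wells had 0.760. Cd200, a surface glycoprotein of endothelium and stroma, had 5 and 30 UMIs (4.59, 1.77 to 15.2). Bsg (basigin) had 3.19, Mllt4 (afadin, of cell junctions) 2.63 and Neat1 2.65. With read counts Bsg had 0.620, and without wells with 3 or more endothelial UMIs Mllt4 had 1.80.

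Lower in Rgs5 wells were Igfbp5 (0.325), Gsn (0.330), S100a10 (0.340) and Rpl12 (0.353). In wells thinned to 300 UMIs, Igfbp5 had 0.885, Gsn 0.758 and Rpl12 0.708, none of them a call. Gsn had 24 of its 79 UMIs at 2 days and 18 of 34 at 13 weeks in 1 well each. Fibroblast or progenitor genes had 172 and 76.4 UMIs per 10000 (0.443), with 3 of 5 lower, against 9.09% of all genes in these wells. Among the 3 were Gsn and Col3a1, which is also in the collagen list. Contractile genes had 1.29 (1.04 to 1.60), with 1 of 5 higher against 8.61%, and the perivascular list had 0.940 (0.742 to 1.19). Acta2 had 20 and 43 UMIs there, a ratio of 1.65 (0.948 to 2.95), with 0 to 3 UMIs per well at 2 days and 0 to 8 at 13 weeks. Immune genes had 1 UMI at 2 days and 44 at 13 weeks, nearly all in 1 well.

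Within the 70 and 49 tendon-gene wells, more genes were lower than higher. Of 478 genes, 22 were higher (4.60%) and 63 lower (13.2%), together 17.8%. The median gene here had a ratio of 0.848, -0.24 on the log2 scale, and relative to it 42 genes were higher and 32 lower, so the split turned with the scaling. The share of called genes that was higher was 25.9% as counted and 56.8% relative to the median. Gm26924 had 641 and 1102 UMIs per 10000 in these wells, so that it took a larger part of the total at 13 weeks.

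Collagens had 527 and 295 UMIs per 10000 in tendon-gene wells (0.560, 0.525 to 0.597), with 6 of 11 members lower, against 13.2% of all genes there. Relative to the median gene the list had 0.660, with 5 of 11 lower, and Col16a1 was no longer called (0.449 as counted, 0.529 relative to the median). The lowest, median and highest wells had 35.5, 432 and 1570 UMIs per 10000 at 2 days and 21.2, 209 and 759 at 13 weeks. Col3a1 had 453 and 46 UMIs (0.165, 0.119 to 0.223), or 0.194 relative to the median gene, and no well held more than 7 UMIs at 13 weeks against 91 at 2 days. Col1a2 had 0.658 and Col1a1 0.511, neither called, and Col12a1 0.980. Col6a2 had 0.393. Of these 5 genes, Col3a1 thus had the lowest ratio and Col12a1 one near 1.

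Mgp had 161 and 228 UMIs per 10000 in tendon-gene wells (1.41, 1.30 to 1.54) and Ogn 15.6 and 24.2 (1.55, 1.17 to 2.04). Chodl (chondrolectin), counted in the muscle satellite list, had 52 and 98 UMIs in 23 wells at each time (3.06, 2.16 to 4.36). Thbs4 had 1.25, Fmod 0.677 and Tnmd 0.881 in these wells, which they chose. Among called genes, Neat1 had 3.28 (2.25 to 4.84), Crispld1 3.12, Tmem204 3.11 and the uncharacterized 1700093K21Rik 4.50. The call ended for 1700093K21Rik with read counts (1.55) and for Tmem204 in wells thinned to 300 UMIs (1.51). Nek5, a kinase, had 3 and 27 UMIs, 18 of them in 1 well. The 5 called genes with the lowest ratios were Mmp13, a collagenase (31 and 1 UMIs, 26 of them in 1 well), Col3a1 (0.165), Wif1 (0.174), Rps27l, a target of p53 (0.174), and Angptl7 (0.208, or 0.518 in wells thinned to 300 UMIs).

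Immediate early genes had a ratio of 0.637 in tendon-gene wells, with 4 of 8 lower, against 13.2% of all genes there, and 0 higher: Ier3 (0.270), Fos (0.355), Jun (0.453) and Fosb (0.499). Relative to the median gene, Jun and Fosb had 0.533 and 0.588 and were not called, which left 2 of 8. Nuclear genes of the respiratory chain had 206 and 149 UMIs per 10000 (0.726, 0.661 to 0.797; 0.855 relative to the median gene), with 8 of 32 lower against the same background and 5 of 32 relative to the median, while mitochondrially encoded proteins had 116 UMIs per 10000 at both times. In Rgs5 wells the respiratory list had 1.02 and in wells with neither 1.19. Contractile genes had 0.808 in tendon-gene wells, with 0 of 5 higher (against 4.60% of all genes) and 1 lower, Tpm1 (0.435). Relative to the median gene Tpm1 had 0.513 and was not called, while Cald1, a caldesmon, had 2.09 and was. Acta2 had 0.869 (0.431 to 1.68). Endothelial genes had 31 and 72 UMIs, with none that could be called. The highest of these wells at 13 weeks had 252 UMIs per 10000 of the list. It also held 1 Rgs5 UMI and so counts in both classes.

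Within the 79 and 52 wells with neither, 31 of 555 genes were higher (5.59%) and 57 lower (10.3%), together 15.9%, and relative to the median gene 37 and 50. The contractile list had its highest ratio of the 3 classes here, with 29.8 and 67.5 UMIs per 10000 (2.26, 1.91 to 2.69) and 5 of 8 members higher against 5.59% of all genes. Acta2 had 29 and 54 UMIs (3.14, 1.96 to 5.11), in 11 and 14 wells, with up to 15 and 28 in 1. Myh11 had 2 and 29 UMIs, in 2 and 7 wells, and Myl9 had 14 and 36 (4.33), 20 of them in 1 well. Without the top wells of the list the ratio was 1.76. A single well thus held 28 of the 54 Acta2 UMIs at 13 weeks.

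Collagens had 330 and 118 UMIs per 10000 in wells with neither (0.356, 0.325 to 0.391), with 5 of 10 lower against 10.3% of all genes. The median well had 73.3 and 45.7 UMIs per 10000 and the highest 1640 and 638. Col1a1 had 0.177 (0.129 to 0.238), Col1a2 0.284, Col3a1 0.462 and Serpinh1 0.295. Col12a1 had 41 and 3 UMIs (0.123, 0.0244 to 0.386), unlike in tendon-gene wells, though the difference between classes was not tested. Mgp had 0.251 here against 1.41 in tendon-gene wells.

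**Figure D3:**
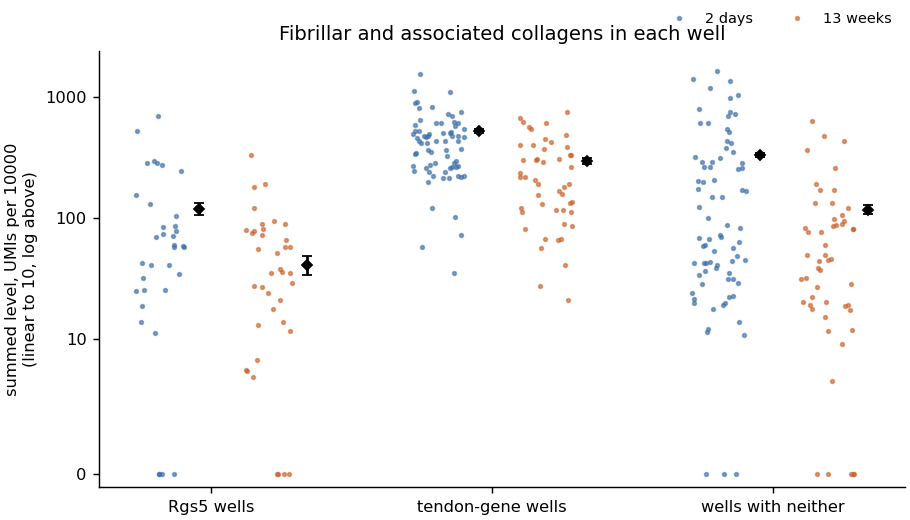
Summed level of the collagen list in each kept well, in UMIs per 10000 (linear to 10, log above), for the 3 classes at 2 days and 13 weeks; points are wells and diamonds the pooled level with its exact 95% Poisson interval. The pooled levels are lower at 13 weeks in each class, 40.9 against 120, 295 against 527 and 118 against 330, while single wells overlap.

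Fabp4 had 7 and 85 UMIs in wells with neither, in 4 and 8 wells, with 43 of the 85 in 1. Srgn (serglycin, of blood and endothelial cells) had 5 and 42, with 39 in 1 well. Without wells with 3 or more endothelial UMIs, Fabp4 had a ratio of 1.38 and Srgn no UMI at 13 weeks. Igf1 had 45 and 4 UMIs (0.15) and Errfi1 58 and 4 (0.116). Bglap2 had 119 and 0 UMIs, which is at least 23.6-fold lower against a floor of 3 counts over the group, but 111 of the 119 were in the osteocalcin well, without which the bound was 1.62-fold. Gm26771, an antisense noncoding RNA, had 31 and 0 UMIs, in 3 wells, with 23 of the 31 in 1 of them. Without that well it was at least 1.61-fold lower, against the same floor. The endothelial list had 14.9 and 51.7 UMIs per 10000 (3.47, 2.77 to 4.36), and its UMIs other than Fabp4 and Cd36 were in 48.1% and 67.3% of the wells. Ly6c1, which is also in the fibroblast or progenitor list, counts in these levels and shares.

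**Figure D4:**
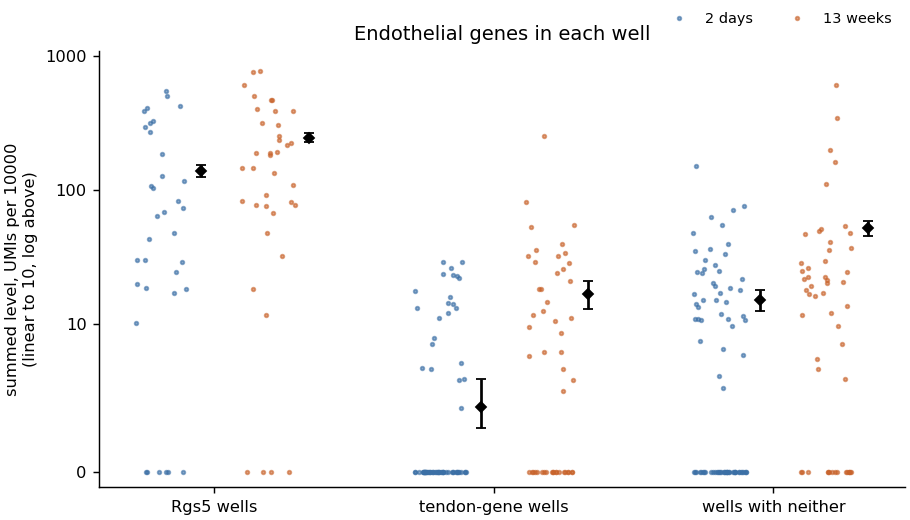
Summed level of the endothelial list in each kept well, in UMIs per 10000 (linear to 10, log above), for the 3 classes at 2 days and 13 weeks; points are wells and diamonds the pooled level with its exact 95% Poisson interval. Levels are highest in Rgs5 wells at both times, 139 and 246, against 4.40 and 16.6 in tendon-gene wells and 14.9 and 51.7 in wells with neither.

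**Figure D5:**
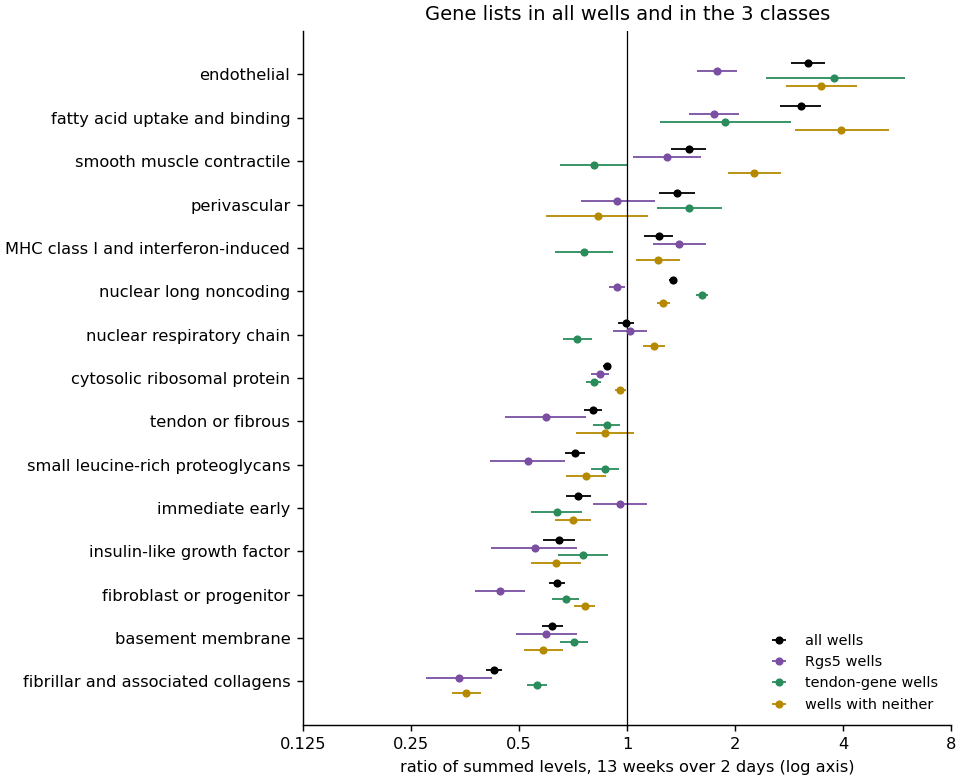
Ratio of the 13-week to the 2-day summed level (log axis) of 15 gene lists in all wells, Rgs5 wells, tendon-gene wells and wells with neither, with exact 95% intervals. Collagens lie under 1 in every class (0.341 to 0.560) and endothelial genes over 1 (1.78 to 3.77), while contractile genes lie at 0.808 in tendon-gene wells and at 2.26 in wells with neither.

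The pairs of classes had 178 to 379 genes with enough UMIs in both, so many genes could be called in 1 class alone, and the shares called in both are given as a description. Rgs5 and tendon-gene wells shared 1 higher gene, Neat1 (5.56% of 18 and 4.55% of 22), and 3 lower, Col3a1, Igfbp5 and S100a6 (15.8% of 19 and 4.76% of 63). Tendon-gene wells and wells with neither shared 3 higher and 7 lower genes, among them Neat1, Rn7sk, Col3a1, Igf1 and Igfbp4. Rgs5 wells and wells with neither shared 3 higher and 5 lower, the latter Cd63, Col1a1, Col1a2, Col3a1 and Id3. Wells that met both conditions, 3 at 2 days and 6 at 13 weeks, count in both of the first pair of classes. Neat1 and Col3a1 were thus past 2-fold, in the same direction, in each of the 3 classes.

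Rgs5-only wells held 12.6% of UMIs at 2 days and 23.2% at 13 weeks. With the classes weighted as at 2 days, the ratio was 2.70 in place of 4.12 for Fabp4 and 5.37 in place of 7.12 for Flt1, and 0.339 in place of 0.306 for Col3a1 and 3.45 in place of 3.28 for Neat1. Fewer cells of a kind and less RNA per cell cannot be told apart for any of these pooled levels.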

How the data were processed

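Tomato+ periosteal cells of 1 plate were analysed, 192 wells for each time. For every well and gene, the authors deposited 2 kinds of raw counts, of UMIs and of reads, unnormalized and unfiltered. Reads had been aligned to GRCm38 with STAR 2.5.4a and tallied with Drop-seq tools, and Picard 2.9.3 and bcl2fastq 2.18.0.12 are named in the submitters' processing notes. One deposited text calls the later wells 12 weeks, whereas the sample labels and the header line of the table give 13 weeks, which was used.

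UMI counts of wells with 200 or more genes were summed by time and class (Python 3.11.15, numpy 2.4.6, pandas 2.3.3, scipy 1.17.1; figures with matplotlib 3.10.9). Intervals were exact at 95%. Each time had 1 pool of mice, so no test was run. Kept wells held 171209 UMIs at 2 days and 117824 at 13 weeks, with 5.02 and 5.50 reads per UMI, and 14766 genes were listed. No wells were removed as doublets, and leaving out the deepest 5% of wells was an alternative. The calls were tested on simulated data with known ratios, which held counting error only.

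The named genes were the 12 highest and 12 lowest ratios over all wells and the 5 of each in a class, among genes past 2-fold without their top well at each time and as a mean over wells. Genes of the rule, of the study's single cell text, the 2 most abundant members of a list, list members past 2-fold and genes of dominated wells were added. A class left out the genes that chose it. The classes and the 35 gene lists were chosen with earlier results of these data known. Alternatives were the gene minimum (100, 300), read counts, left-out wells, thinning to 300 UMIs, a mean over wells, TMM factors (edgeR 4.0.16, R 4.3.3), a median ratio of 1, other UMI minima and stricter class limits (Rgs5 at 2, tendon genes at 5). Gene locations are from GENCODE vM21 and promoters from RefSeq.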

Additional observations from a re-analysis of the deposited data

Results flagged for a closer look

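Some genes were past 2-fold in opposite directions in 2 classes of wells. With 1 pool per time, the differences between classes were not tested, and each value rests on few UMIs. Rarres2, which encodes the secreted protein chemerin, had a ratio of 0.484 in Rgs5 wells and 2.62 in tendon-gene wells. Abca8a, a lipid transporter, had 2.32 in tendon-gene wells and 0.377 in wells with neither, and Ctsz, a lysosomal protease, had 2.59 and 0.437 in the same classes. S100a4, a calcium-binding protein of fibroblasts and immune cells, had 0.233 in tendon-gene wells and 2.81 in wells with neither. Tmed10, a cargo receptor of the secretory pathway, had 0.477 and 2.53 there, and the precursor listed as mmu-mir-6236 had 3.09 and 0.489, where the transcript these UMIs come from was not tested. Relative to the median gene of the class, the lower calls of Rarres2, Tmed10 and mmu-mir-6236 did not hold.

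The wells with under 200 genes, used in no comparison, held UMIs of Thbs4, Fmod and Tnmd, 17 in 11 wells at 2 days and 57 in 59 wells at 13 weeks. These are 65.6 (38.2 to 105) and 59.2 (44.8 to 76.7) per 10000 UMIs of those wells.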

How the results depend on the processing

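No paired analysis was possible because the labels give no replicate numbers and the results come from no test. Each time was 1 pool, with medians of 795 and 726 UMIs a well. Of 156 counts of called genes under an alternative, 109 stayed within 1.5 times and 47 moved, mostly where the UMI minimum or the depth changed; 35 of 36 shares of wells, 423 of 524 list ratios and 935 of 1029 ratios of named genes moved by less than their counting interval. The dependence of these counts on the minimum follows from the number of genes it admits.

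Counts are given as higher and lower for all wells, then Rgs5, tendon-gene and neither wells. Halving the UMI minimum gave 106 and 131, 65 and 52, 75 and 156, and 96 and 175. Doubling it gave 10 and 23, 3 and 6, 7 and 22, and 11 and 23. With no minimum beyond 1 UMI in each time, they were 1824 and 1458, 627 and 733, 1113 and 755, and 1158 and 866. Thinning to 300 UMIs gave 6 and 8, 3 and 1, 4 and 7, and 5 and 14. Read counts gave 50 and 83 in all wells, 32 lower in Rgs5 wells, 41 higher in tendon-gene wells, and 53 and 91 in wells with neither. Without the deepest 5% of wells, 14 genes were higher in tendon-gene wells and 20 in wells with neither. A median ratio of 1 gave 42 and 32 in tendon-gene wells, and stricter class limits gave 10 and 8 in Rgs5 wells.

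Leaving out wells with 3 or more endothelial UMIs (31 at 2 days, 46 at 13 weeks; chosen after seeing the data) moved the Rgs5 share difference to -2.80 points, the genes higher in all wells to 15, and those in Rgs5 wells to 2 higher and 12 lower. The ratio turned for Aqp1 (0.864), H2-K1 in Rgs5 wells (0.600) and Srgn in wells with neither (0 UMIs at 13 weeks, ratio 0). Fabp4 then had 1.22 and the endothelial list 1.62, while the collagen list had 0.468 and Neat1 3.95. Aqp1 and Fabp4 are in the list that chose these wells, so their values and that of the list are no check here. Srgn also turned without the deepest wells (0.860), and Bsg in Rgs5 wells with read counts (0.620). The cause was not tested. The collagen list ranged from 0.400 to 0.468 over its alternatives.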

Other observations

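Genes of other lineages were seen at both times. Osteoblast genes had 95.8 and 27.4 UMIs per 10000 (ratio 0.286), 74.7% of them from Col1a1, with 3 of 3 members lower, against 6.35% of all genes, of which Bglap and Bglap2 had most of their UMIs in the osteocalcin well. Chondrocyte genes, mostly Comp, had 87 and 33 UMIs (0.551, 0.358 to 0.832). The muscle satellite list had a ratio of 1.11 (0.892 to 1.37), 0.543 without Chodl, and the Schwann cell list 1.01 (0.655 to 1.55). Immune genes had 56 and 63 UMIs in 7 and 10 wells (1.63), and the only Y-linked UMI, of Kdm5d, was in 1 well at 2 days.

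Signaling and cell cycle lists had few members with enough UMIs. The Wnt list had 14.9 and 7.47 UMIs per 10000 (0.501, 0.389 to 0.641), with 2 of 3 members lower, against 6.35% of all genes, and the TGF-beta and BMP list 43.0 and 29.3 (0.680), with 2 of 5 lower against the same share. The Notch list had 1.08 (0.823 to 1.40) and the chemokine and niche list 1.11 (0.900 to 1.36), with 0 members called. Relative to the median gene, 1 of 3 chemokine and niche members with enough UMIs was higher. Proliferation genes had 8.0 and 6.45 UMIs per 10000 (0.806, 0.601 to 1.07), cell cycle inhibitor and senescence genes 9.29 and 7.72 (0.832, 0.636 to 1.08), and mitochondrially encoded proteins 120 and 124 (1.03, 0.966 to 1.11).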
